A study of Canis lupus familiaris with 4 samples.

Results

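The matrix metalloproteinases (MMPs) and their tissue inhibitors (TIMPs) were followed in 4 canine glioblastoma (GBM) lines. The members were the enzymes MMP1, MMP2, MMP3, MMP9, MMP13, MMP14 and MMP16 and the inhibitors TIMP1, TIMP2 and TIMP3, 10 of the 15115 genes named on the array. Every probe set listed with exactly 1 of these symbols was taken, which gave 19 of 42924 probe sets, 13 for enzymes and 6 for inhibitors. J3T-1 and J3T-2 are sublines of the same canine tumor cells (J3T), and the authors describe them as expressing high and low annexin A2 (ANXA2). Lines called labelled high (J3T-1 and J3T-2A) or low (J3T-2 and J3T-1shA) below follow the authors, as the sample labels give only line names. J3T-1shA is J3T-1 with ANXA2 knocked down, and J3T-2A is J3T-2 with ANXA2 overexpressed. All were grown in the same serum-containing medium, and RNA of each line was hybridized to 1 array, so no line has a replicate and no test was run. Lines with the same ANXA2 label or the same origin were not treated as replicates of each other. Whether J3T-1shA or J3T-2A is 1 clone is not given in the sources used here.

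MMPs are zinc-dependent enzymes that cut proteins of the extracellular matrix, and glioma cells are known to use them when they invade brain tissue and when new vessels form. Collagenases (MMP1 and MMP13) cleave fibrillar collagen, gelatinases (MMP2 and MMP9) cleave denatured and basement membrane collagen, the stromelysin MMP3 cleaves many matrix proteins and activates other MMPs, and membrane-type enzymes (MMP14 and MMP16) sit on the cell surface, where MMP14 activates the precursor of MMP2. TIMPs bind the active site of MMPs. TIMP2 also links pro-MMP2 to MMP14, TIMP1 inhibits membrane-type enzymes poorly, and TIMP3 is held in the matrix and also inhibits several ADAM and ADAMTS proteases. MMP3, MMP14, MMP16, TIMP1 and TIMP2 have 1 probe set each, so no second one checks them. The signals below measure messenger RNA and neither secreted protein nor enzyme activity.

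Values are MAS 5.0 signals, which are brightness values on a linear scale, with array medians of 101.8 to 106.5 and highest signals of 44434.6 to 46646.0. A probe set was taken as measured in a pair of arrays where the brighter array reached a signal limit of 250, and as different at a ratio over 2-fold. The only error these data give is the spread between probe sets of one gene. The SD of the difference between the log2 ratios of a gene's 2 brightest measured probe sets was 0.295 for J3T-2A over J3T-2, over 3718 genes, and 0.371 for J3T-1 over J3T-1shA, over 3769 genes. Over all 6 pairs it was 0.295 to 0.407. This SD holds how far probe sets of a gene disagree on the same arrays, over measured genes of all brightness. Error of an extract or array that a gene's probe sets share is not in it. How far separate cultures of a line would differ is unknown, so values in SD do not give the precision of a difference between lines. The brightest ANXA2 probe set read 28656.0 in J3T-1, 30092.9 in J3T-1shA, 30102.5 in J3T-2 and 28774.6 in J3T-2A. A second one read 24127.5, 25725.4, 30310.9 and 35650.8 in the same order, with J3T-2A over J3T-2 but J3T-1 under J3T-1shA, and the third one was under the limit. Neither bright probe set put both lines labelled high above both labelled low, so lines are named as the arrays were labelled. Whether such bright signals are compressed was not tested, so these values do not check the ANXA2 labels. Of the 5 glioma markers named on the array, VIM and SOX2 were over the limit on every array, NES in J3T-1shA only (345.9), and EGFR (6.4 to 216.1) and the astrocytic marker GFAP (8.2 to 21.6) on none. The epithelial marker KRT8 read 435.4 in J3T-1, 562.6 in J3T-1shA, 1076.3 in J3T-2 and 288.0 in J3T-2A. The endothelial marker PECAM1 read 37.0, 1.0, 773.2 and 161.0 in the same order. The macrophage marker C1QA was over the limit on every array. The other 3 epithelial markers, 4 endothelial markers and 4 markers of microglia and macrophages were under the limit on every array.

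Of the 10 genes, 6 were measured on at least 1 array (MMP1, MMP2, MMP14, TIMP1, TIMP2 and TIMP3), with 11 of their probe sets. The other 8 probe sets, 7 of them of MMP3, MMP9, MMP13 and MMP16 and 1 of MMP2, stayed under the limit on every array, with signals of 2.2 to 142.1.

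**Figure D1:**
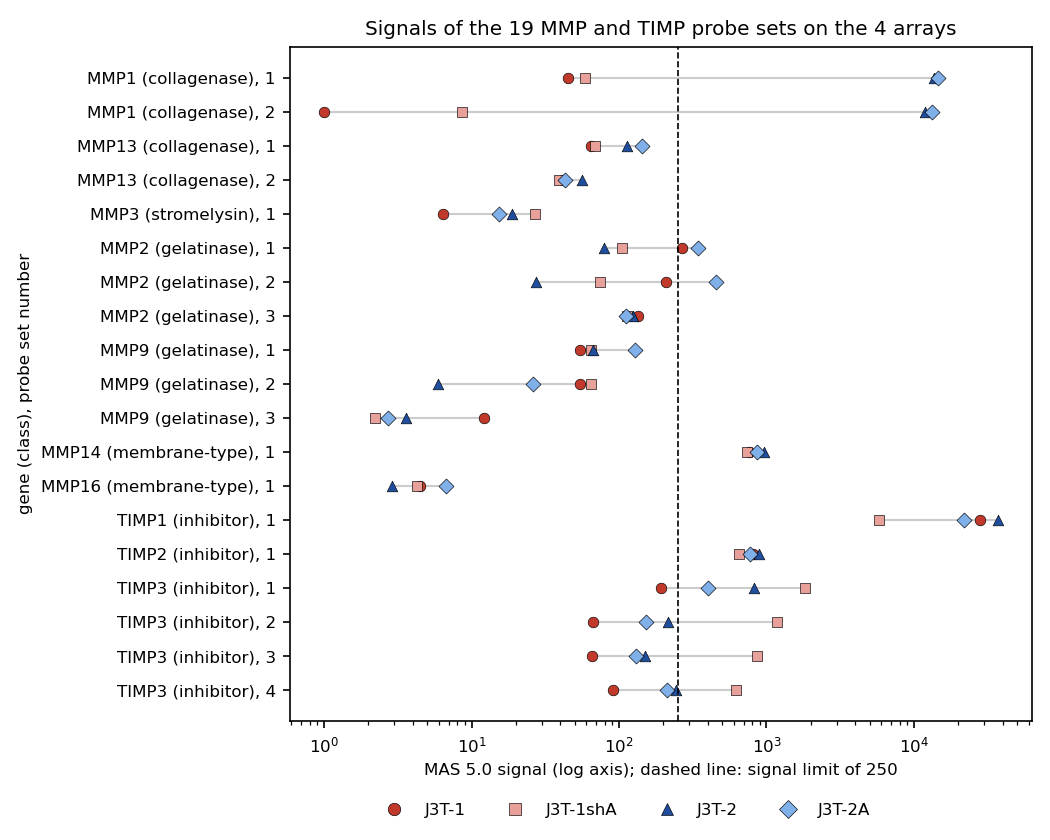
MAS 5.0 signal (x axis, log scale) of the 19 probe sets (y axis, grouped by enzyme class) on the arrays of J3T-1 (red circles), J3T-1shA (pink squares), J3T-2 (dark blue triangles) and J3T-2A (light blue diamonds), with 1 array per line and the limit of 250 as a dashed line. Both MMP1 probe sets lie at 11844.9 to 14605.3 in J3T-2 and J3T-2A and at 1.0 to 59.2 in J3T-1 and J3T-1shA, and all 4 TIMP3 probe sets are brightest in J3T-1shA and dimmest in J3T-1.

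The interstitial collagenase MMP1 separated the lines by their line of origin and not by their ANXA2 label. Its brightest probe set read 13567.5 in J3T-2 and 14605.3 in J3T-2A, against 44.8 in J3T-1 and 59.2 in J3T-1shA. The second probe set read 11844.9 and 13324.4 against 1.0 and 8.6. Both J3T-2 lines were therefore bright and both J3T-1 lines were dim by either probe set. Since the dim signals lie under the limit, the fold is given as a bound against the limit of 250. J3T-2 was at least 54.3-fold higher than J3T-1 and J3T-1shA, and J3T-2A at least 58.4-fold, by the brightest probe set (47.4-fold and 53.3-fold by the second). J3T-2A over J3T-2, the pair for ANXA2 overexpression, had a log2 ratio of 0.11 by the brightest probe set and 0.17 by the second, which is 0.36 and 0.58 SD of the spread between probe sets. J3T-1 and J3T-1shA could not be compared, as both were under the limit.

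The gap between the dimmer of J3T-2 and J3T-2A and the brighter of J3T-1 and J3T-1shA was then computed for all 15115 genes, with signals under the limit raised to it. On this scale MMP1 had the largest gap, at 54.3-fold, followed by the chemokine CCL2 (24.2-fold) and the chemokine CXCL8 (11.0-fold). For genes dim in both J3T-1 lines, MMP1 among them, the gap is a lower bound set by the limit, so the ranking is no ranking of true folds. SAA1, for example, had a gap of 6.44-fold, from 1609.2 in J3T-2A with both J3T-1 lines at 43.1 or less. A gap over 2-fold was found for 27 genes brighter in the J3T-2 lines and for 9 brighter in the J3T-1 lines. None of the other measured members had a gap over 2-fold either way on this scale.

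**Figure D2:**
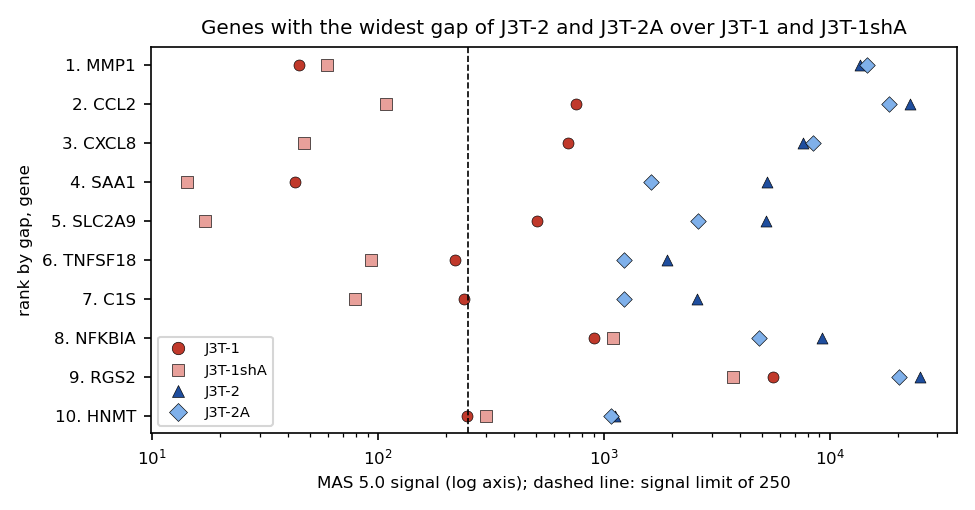
MAS 5.0 signal (x axis, log scale) of the 10 genes with the largest gap of J3T-2 and J3T-2A (blue) over J3T-1 and J3T-1shA (red and pink), ranked from the top, with 1 array per line and the limit of 250 as a dashed line. MMP1 ranks first at 54.3-fold and CCL2 next at 24.2-fold, each gap taken after signals under the limit were raised to it.

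The collagenase-3 gene MMP13, the stromelysin gene MMP3 and MMP1 are near neighbours in a cluster of MMP genes, and of the genes named on the array MMP1 alone was over the limit. In the RefSeq annotation of the UU_Cfam_GSD_1.0 assembly, used here for gene order only, the protein-coding genes run MMP13, MMP12, MMP3, MMP1, an unnamed locus, MMP8, MMP27, MMP20 and MMP7. The 7 of these 9 genes that were named on the array included MMP3 at 6.4 in J3T-1, 26.9 in J3T-1shA, 18.8 in J3T-2 and 15.4 in J3T-2A. The brighter MMP13 probe set read 64.6, 68.5, 114.1 and 142.1 in the same order, and the dimmer one read 41.7, 39.4, 56.5 and 42.9. MMP8, MMP27, MMP20 and MMP7 had signals of 3.7 to 67.0. All of these are under the limit, so no difference between lines is read from them. MMP12 was not analysed here.

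**Figure D3:**
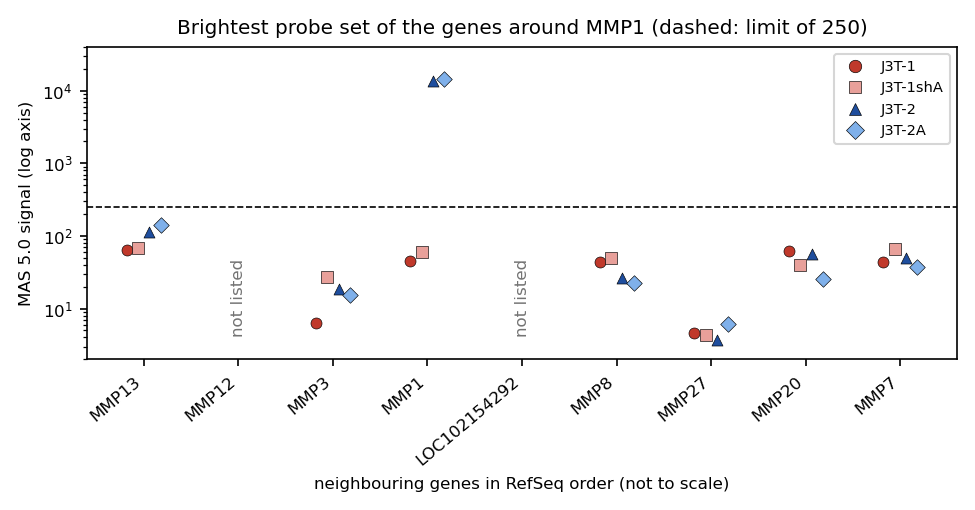
MAS 5.0 signal (y axis, log scale) of the brightest probe set of each gene around MMP1, in RefSeq gene order (x axis, not to scale), on the 4 arrays, with the limit of 250 as a dashed line. Only MMP1 in J3T-2 (13567.5) and J3T-2A (14605.3) lies over the limit, and the genes marked "not listed" have no probe set named here.

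The gelatinase gene MMP2 was brighter in both lines labelled as ANXA2-high, but close to the limit. Its brightest probe set read 342.2 in J3T-2A and 266.5 in J3T-1, against 105.3 in J3T-1shA and 79.3 in J3T-2, and its second probe set read 455.2, 209.0, 74.3 and 27.3. The 2 lines labelled high lay above the 2 labelled low in both. The third probe set read 112.4 to 134.4 on all arrays, under the limit, and showed no such order. For J3T-2A over J3T-2 the log2 ratio was 2.11 by the brightest probe set and 4.06 by the second, and for J3T-1 over J3T-1shA it was 1.34 by the brightest, the second being unmeasured. Because the dimmer arrays were under the limit, the bound was only at least 1.37-fold for J3T-2A over J3T-2 (1.82-fold by the second probe set) and at least 1.07-fold for J3T-1 over J3T-1shA. J3T-2A and J3T-1 differed by 0.36 in log2, or 0.99 SD of the spread between probe sets, and by 1.12 by the second probe set, with J3T-1 under the limit.

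The other gelatinase gene, MMP9, was under the limit by all 3 probe sets. The brightest of them read 54.0 in J3T-1, 64.4 in J3T-1shA, 66.6 in J3T-2 and 128.4 in J3T-2A, and the other two had signals of 2.2 to 64.4. The 3 probe sets gave 3 different orders of the lines.

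The membrane-type enzyme MMP14 was measured on every array and was nearly level. It read 755.6 in J3T-1, 732.6 in J3T-1shA, 964.5 in J3T-2 and 857.5 in J3T-2A by its single probe set. The range over all arrays was 0.40 in log2, and no neighbours in the order differed by more than 0.58 SD of the spread between probe sets. MMP16, another membrane-type enzyme, had signals of 2.9 to 6.7.

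TIMP1 was the brightest inhibitor probe set in every line, although signals of different probe sets do not rank messenger RNA levels. It read 28103.8 in J3T-1, 5806.6 in J3T-1shA, 37282.3 in J3T-2 and 21772.1 in J3T-2A. J3T-1shA stood below the other lines, by 1.91 in log2 from the nearest one, or 5.74 SD of the spread between probe sets. The other 3 lines were 0.37 and 0.41 apart, 1.01 and 1.11 SD. The log2 ratio was 2.27 for J3T-1 over J3T-1shA, whereas it was -0.78 for J3T-2A over J3T-2, which is within 2-fold. The line labelled high was thus brighter in the first pair and dimmer in the second. In J3T-2 only 17 probe sets were brighter than that of TIMP1, and whether such bright signals are compressed was not tested.

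TIMP2, the inhibitor that takes part in pro-MMP2 activation, read 814.6 in J3T-1, 652.9 in J3T-1shA, 894.3 in J3T-2 and 773.0 in J3T-2A. Its order of lines was that of TIMP1, but its whole range was 0.45 in log2 and no neighbours in this order differed by more than 0.73 SD of the spread between probe sets.

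TIMP3, the matrix-bound inhibitor, was brightest in J3T-1shA and dimmest in J3T-1. Its brightest probe set read 194.1 in J3T-1, 400.5 in J3T-2A, 816.8 in J3T-2 and 1826.5 in J3T-1shA, and the neighbours in this order differed by 2.85 to 3.49 SD of the spread between probe sets, with J3T-1 under the limit. All 4 TIMP3 probe sets gave this order. In J3T-1shA the others read 1183.0, 861.3 and 623.9, against 67.1, 65.4 and 90.8 in J3T-1. J3T-1 over J3T-1shA had log2 ratios of -3.23, -4.14, -3.72 and -2.78, and the bound against the limit was at least 7.31-fold lower by the brightest probe set. J3T-2A over J3T-2 had a log2 ratio of -1.03, just over 2-fold. The other probe sets were under the limit in both lines and gave -0.51, -0.21 and -0.19, and the call of over 2-fold ended with the median of the probe sets (-0.36) and with a pseudocount of 80 (-0.90). In both pairs the line labelled as ANXA2-high read lower than its low counterpart. Markers of fibroblasts and pericytes, 4 of 6 of which were over the limit on some array, had a summed signal of 18000.4 in J3T-1, 30277.3 in J3T-2, 42049.1 in J3T-2A and 50309.2 in J3T-1shA. This sum was also lowest in J3T-1 and highest in J3T-1shA, but of its genes over the limit only COL1A1 had both ends in these lines. DCN was lowest in J3T-1 (387.9) and highest in J3T-2 (1292.0), LUM lowest in J3T-1 (14940.1) and highest in J3T-2A (29213.0), and ACTA2 lowest in J3T-2 (24.9) and highest in J3T-1shA (13625.3). PDGFRB and RGS5 were under the limit throughout. The part of such cells in the TIMP3 signal was not tested. In such cultures a larger share of cells with a transcript and more of it per cell cannot be told apart.

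**Figure D4:**
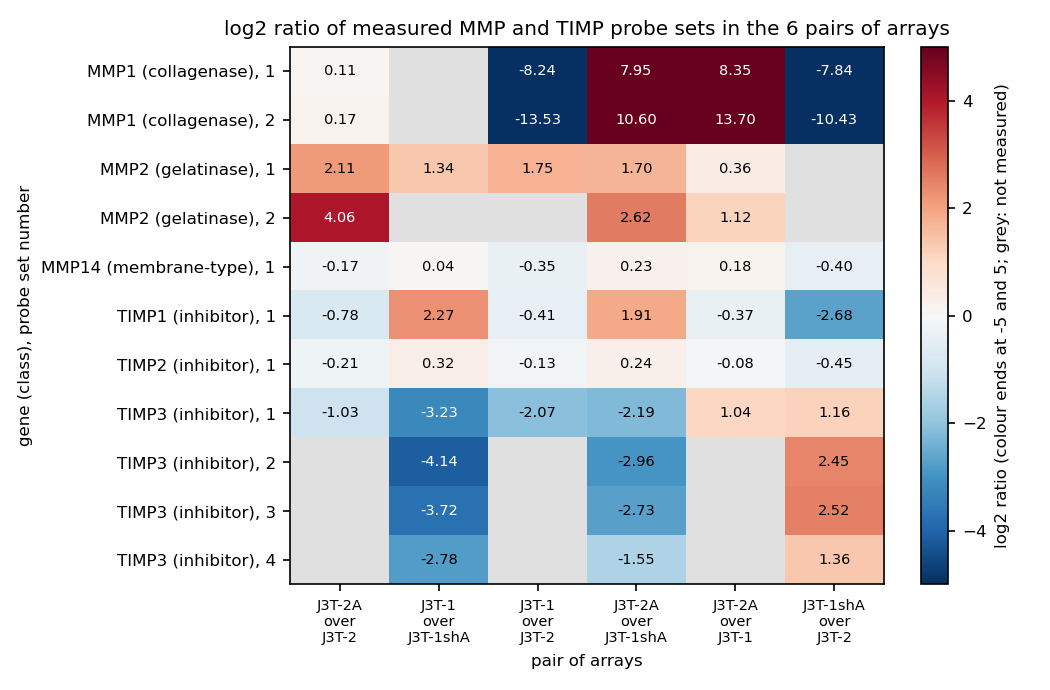
log2 ratio (colour and printed value) of the 11 probe sets measured in at least 1 pair (y axis) in the 6 pairs of arrays (x axis), red for higher and blue for lower in the line named first, with grey where both arrays were under the limit of 250. MMP1 is level for J3T-2A over J3T-2 and far apart in every pair across origins, while TIMP3 is lowest for J3T-1 over J3T-1shA.

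Counted by the brightest probe set of each gene, 2 of 6 measured members were over 2-fold different in J3T-2A over J3T-2, MMP2 higher and TIMP3 lower (the latter within 2-fold by the median of its probe sets), where 3.79% of 6860 measured genes were over 2-fold different. In J3T-1 over J3T-1shA these were 3 of 5, MMP2 and TIMP1 higher and TIMP3 lower, against 8.06% of 6944 genes. In J3T-1 over J3T-2 they were 3 of 6 (MMP2 higher, MMP1 and TIMP3 lower) against 6.99%. In J3T-2A over J3T-1shA they were 4 of 6, with MMP1, MMP2 and TIMP1 higher and TIMP3 lower, against 5.77%. J3T-2A over J3T-1, the lines labelled high, had 2 of 6 (MMP1 and TIMP3 higher) against 4.66%, and J3T-1shA over J3T-2, the lines labelled low, had 3 of 5 (TIMP3 higher, MMP1 and TIMP1 lower) against 9.7%. With so few members these shares describe the named genes and nothing about MMPs and TIMPs as a class. The 6 pairs share 4 arrays and are not independent. Where both arrays had to reach the limit, the counts in the same order of pairs were 1 (TIMP3), 1 (TIMP1), 0, 2, 0 and 2. Under this rule 1.75%, 4.96%, 3.73%, 3.01%, 2.52% and 5.28% of all genes were over 2-fold different.

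Each enzyme was next set against each TIMP by the difference of their log2 ratios in the same pair, which says whether both changed unequally and nothing about which is more abundant. For the membrane-type enzyme MMP14, the difference from TIMP2 was between -0.27 and 0.26 over the 6 pairs, within 1 SD of the spread between probe sets in each. MMP14 against TIMP1 was -2.23 in J3T-1 over J3T-1shA and 0.61 in J3T-2A over J3T-2. Against TIMP3 it was 3.28 (2.91 with J3T-1 raised to the limit) and 0.86 in these pairs, by the brightest TIMP3 probe set. By that probe set MMP14 read higher relative to TIMP3 in both lines labelled as ANXA2-high, while against TIMP1 its sign turned. In J3T-2A over J3T-2 the other TIMP3 probe sets were under the limit in both lines. They had log2 ratios of -0.51, -0.21 and -0.19, against -0.17 for MMP14, so the 0.86 rests on the brightest one.

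For the gelatinase MMP2, J3T-2A over J3T-2 gave 2.89 against TIMP1, 2.32 against TIMP2 and 3.14 against TIMP3. With signals under the limit raised to it these were 1.23, 0.66 and 1.48, still positive. In J3T-1 over J3T-1shA, MMP2 gave -0.94 against TIMP1, 1.02 against TIMP2 and 4.57 against TIMP3, and -2.18, -0.23 and 2.96 after signals were raised to the limit. MMP2 was thus higher relative to TIMP3 in both pairs under either treatment, whereas its direction against TIMP2 in the second pair depended on signals under the limit. With signals raised, MMP2 itself had log2 ratios of 0.45 and 0.09 in these pairs, and TIMP3 had -1.03 and -2.87. The -1.03 rests on the brightest TIMP3 probe set, as the others were under the limit in J3T-2A and J3T-2.

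For the collagenase MMP1, J3T-2A over J3T-2 gave 0.88 against TIMP1, 0.32 against TIMP2 and 1.13 against TIMP3, which were over 2 SD of the spread for TIMP1 and TIMP3 and not for TIMP2. MMP1 itself was level there, with a log2 ratio of 0.11, while TIMP1 and TIMP3 were lower in J3T-2A. TIMP1 was within 2-fold there. The value against TIMP3 rests on its brightest probe set, as the others were under the limit in both lines. In J3T-1 over J3T-2 the differences were -7.83, -8.11 and -6.17, or -5.35, -5.63 and -4.05 after raising signals to the limit, each larger than any difference of MMP2 or MMP14 in that pair. MMP1 could not be compared with a TIMP in J3T-1 over J3T-1shA.

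The inhibitors also changed unequally among themselves. In J3T-1 over J3T-1shA, TIMP1 less TIMP3 was 5.51 in log2, TIMP1 less TIMP2 was 1.96 and TIMP2 less TIMP3 was 3.55, with TIMP3 under the limit in J3T-1. With that signal raised to the limit, TIMP1 less TIMP3 was 5.14 and TIMP2 less TIMP3 was 3.19, so the values were 13.9, 5.27 and 8.59 SD of the spread. In J3T-2A over J3T-2, TIMP1 less TIMP3 was 0.25, or 0.85 SD, as both were lower in J3T-2A, and TIMP2 less TIMP3 was 0.82, or 2.77 SD. The TIMP3 ratio of this pair rests on its brightest probe set, as the others were under the limit in both lines.

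**Figure D5:**
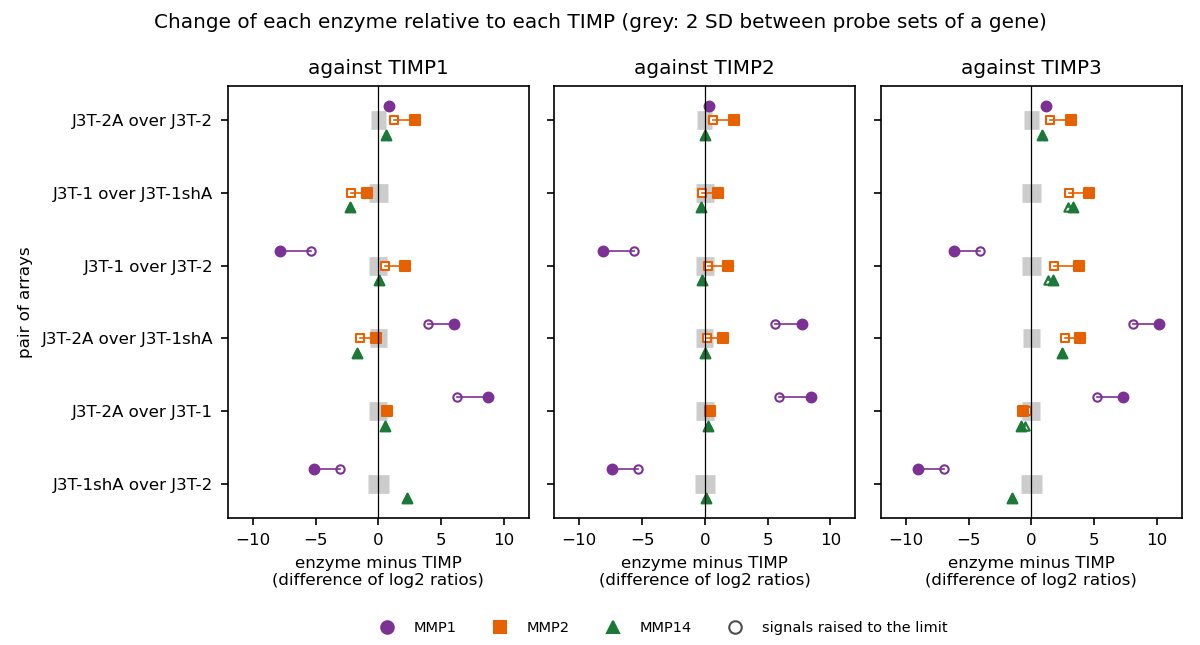
Difference of the log2 ratios of MMP1 (purple circles), MMP2 (orange squares) and MMP14 (green triangles) from that of TIMP1, TIMP2 and TIMP3 (panels) in the 6 pairs of arrays (y axis), where a positive value means that the enzyme was higher relative to the TIMP in the line named first. Filled points use the deposited signals and open points signals raised to the limit of 250, and the grey bands span 2 SD of the spread between probe sets of a gene. MMP14 lies near 0 against TIMP2 in each pair, and MMP1 lies far from 0 in the pairs across origins.

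Of other metalloproteinases and inhibitors, a list of 18 genes, 14 were named on the array and 13 of these were under the limit on every array. MMP23B of this list was not matched, and the array's MMP23 read 12.2 to 99.5. MMP19, which cleaves basement membrane proteins, was the exception, at 888.9 in J3T-2 and 691.7 in J3T-2A against 408.4 in J3T-1shA and 239.2 in J3T-1. Both J3T-2 lines were above both J3T-1 lines. Unlike for MMP1, this gap was within 2-fold, with a log2 ratio of 0.76 for J3T-2A over J3T-1shA. The log2 ratio of MMP19 was -0.36 for J3T-2A over J3T-2 and -0.77 for J3T-1 over J3T-1shA, both within 2-fold. RECK, a membrane-anchored MMP inhibitor, was at 157.6 to 220.8.

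Of 21 genes for MMP activation, docking and clearance, 10 were measured in J3T-2A over J3T-2, where 1 was higher and none lower (median log2 ratio 0.06, against -0.003 for all genes), and 7 in J3T-1 over J3T-1shA, where 2 were lower and none higher (median -0.29, against 0.033). Of all measured genes, 3.79% and 8.06% were over 2-fold different in these pairs. PLAU, the urokinase that starts plasmin-driven activation of MMPs, read 859.0 in J3T-1, 2334.2 in J3T-1shA, 874.4 in J3T-2 and 2414.0 in J3T-2A. It was brighter in both engineered lines than in their parents, with a log2 ratio of 1.47 for J3T-2A over J3T-2 and of -1.44 when J3T-1 was set over J3T-1shA. PLAT, the tissue plasminogen activator, read 367.7 in J3T-1 against 1223.3 in J3T-1shA. CD44, which docks MMP9, and ITGAV, a chain of the integrin that docks MMP2, were bright on every array and within 2-fold in both pairs.

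Of a list of 18 ADAM and ADAMTS enzymes, 4 were measured in either pair. Whether a TIMP inhibits each of them was not checked, so no tie to the TIMPs is read from this list. None was over 2-fold different in J3T-2A over J3T-2 (median log2 ratio -0.07), and ADAM9, a membrane-bound sheddase, was 2.12-fold lower in J3T-1 than in J3T-1shA (median of the list 0.40), which is 1 of 4 against 8.06% of all genes.

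Of 23 transcription factors known to act on MMP and TIMP promoters, 12 were measured in J3T-2A over J3T-2, where only FOS was over 2-fold different, 2.49-fold lower (median -0.28), against 3.79% of all genes. In J3T-1 over J3T-1shA 14 were measured and 3 were higher, the immediate early genes FOS and EGR1 and the ETS factor ETV1 (median 0.29), against 8.06% of all genes over 2-fold different. EGR1 read 1043.5 in J3T-1, 106.0 in J3T-1shA, 1133.2 in J3T-2 and 725.7 in J3T-2A, and ETV1 read 5413.3, 1331.6, 5910.6 and 3824.2. Like TIMP1, both were lowest in J3T-1shA and highest in J3T-2. FOS had the same order, at 681.6, 153.3, 1044.9 and 418.9. NFKB1, an NF-kB subunit, read 656.7 in J3T-1, 808.6 in J3T-1shA, 1961.9 in J3T-2 and 1663.5 in J3T-2A, higher in both J3T-2 lines. It was picked from the list after its values were seen, and a tie to MMP1 was not tested. RELA, another NF-kB subunit, was under the limit on every array, at 89.3 to 123.3.

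Of 19 matrix genes whose products MMPs cut, 12 were measured in J3T-2A over J3T-2, where COL1A1 and TNC were over 2-fold higher and none lower (median 0.23), against 3.79% of all genes over 2-fold different. In J3T-1 over J3T-1shA 13 were measured, TNC and VCAN were higher, and COL1A1, COL4A1, COL5A1 and DCN were lower (median -0.16), 6 of 13 against 8.06% of all genes. COL1A1, a chain of the fibrillar collagen that MMP1 cuts, read 2013.8 in J3T-1, 16841.9 in J3T-1shA, 3798.8 in J3T-2 and 11898.9 in J3T-2A. It was lowest in J3T-1 and highest in J3T-1shA, as TIMP3 was, but the order of J3T-2 and J3T-2A was the reverse.

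The genes most like each member were found as those with the smallest root mean square difference of centred log2 signals over the 4 arrays, among 7240 genes over the limit on at least 1 array. With 4 points, close matches are found among so many genes for any pattern, and nothing is read from them on shared control. For TIMP1 the nearest was PDCD4 (difference 0.044), which read 2492.2 in J3T-1, 515.3 in J3T-1shA, 3556.4 in J3T-2 and 1946.9 in J3T-2A, followed by PROCR and S100A2. For TIMP3 it was the prostaglandin E synthase gene PTGES (0.079), at 275.5, 2736.2, 1336.7 and 636.1, followed by NTRK2 and SERPINI1. For MMP2 the nearest were LOC479874 (0.232), STAC and DYRK1B, all with the J3T-2 and J3T-1shA arrays under the limit. For MMP1 it was MAN1A1 (0.446), at 5.1, 3.1, 752.6 and 1123.3, followed by the acute-phase gene SAA1 (1.13) and the adhesion molecule gene VCAM1 (1.29). These differences were larger than for the other members. They include signals under the limit in both J3T-1 lines and were not scaled to the wider range of MMP1, so no looser match is read from them.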

How the data were processed

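The authors computed the deposited signal intensity for each probe set of the GeneChip Canine Genome 2.0 array with MAS 5.0 at default settings, scaling each array to one trimmed mean. Their methods give 100 as target, whereas the deposited columns had trimmed means of 495.8 to 496.0 with the lowest and highest 2% left out, so limits set for the stated scale were multiplied by 5 (50 to 250, and a pseudocount of 16 to 80). No detection calls were used, no build is named and depth does not apply to arrays. Their number limits precision. Symbols came from the array annotation, and all 19 member probe sets kept theirs when looked up by Entrez identifier. The brightest probe set by mean signal stood for a gene. log2 ratios were taken without further normalization, in Python 3.11.15 with pandas 2.3.3. The code for ratios and counts was tested on simulated arrays, with changes only in bright probe sets and well over 2-fold. This does not cover calls near the limit or near 2-fold. The SD between probe sets used the 2 brightest measured per gene. Named genes were all members, list genes over 2-fold in either ANXA2 pair, and the 3 genes most like each member measured with a range over 2-fold. All glioma, fibroblast and pericyte markers on the array were named as well. Genes in the ranking by gap, MMP19, RECK, CD44, ITGAV, NFKB1, RELA and C1QA were named after their values were seen. The members, lists and alternatives were chosen with earlier results of these data known. No sequences were used here.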

Additional observations from a re-analysis of the deposited data

Results flagged for a closer look

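TIMP1 moved in opposite directions in the pairs labelled high over low, and the difference was not tested, as each line has 1 array. Only the ratio of J3T-1 over J3T-1shA was over 2-fold, and that of J3T-2A over J3T-2 was within it. TIMP1 has 1 probe set, and whether such bright signals are compressed was not tested. Its log2 ratio was -0.78 for J3T-2A over J3T-2 (21772.1 against 37282.3) and 2.27 for J3T-1 over J3T-1shA (28103.8 against 5806.6), a difference of 3.05, and each ratio was larger than the SD between probe sets of a gene in its pair (0.295 and 0.371).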

How the results depend on the processing

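Of 54 recomputed counts of members over 2-fold, 41 stayed within 1.5 times the value reported. For J3T-2A over J3T-2 the count of 2 fell to 1 with a pseudocount of 80, a limit of 500, both arrays over the limit, the median of the probe sets, and signals raised to the limit (chosen after seeing the data). For J3T-2A over J3T-1 the count of 2 became 1 with the pseudocount, the limit of 500 and signals raised to the limit, 0 with both arrays over the limit and 5 with no limit. With no limit, 19.7% of all genes were over 2-fold different in that pair, against 4.66% with it. With both arrays over the limit, J3T-1 over J3T-1shA gave 1 instead of 3, J3T-1 over J3T-2 gave 0 instead of 3 and J3T-2A over J3T-1shA gave 2 instead of 4, because MMP1, MMP2 or TIMP3 is under the limit on 1 array of these pairs. The 24 recomputed counts of enzymes and TIMPs changing unequally by over 2-fold stayed within 1.5 times, but a stable count can hold other genes. With signals raised to the limit in J3T-1 over J3T-1shA, MMP2 against TIMP2 left the count (1.02 to -0.23). MMP2 against TIMP1 entered it (-0.94 to -2.18). Of 170 recomputed log2 ratios of members, 145 moved by less than the SD between probe sets, and none that was over 2-fold changed sign. A pseudocount or signals raised to the limit cannot change a sign, so these alternatives say nothing on it. MMP14, TIMP1 and TIMP2 have 1 probe set each, over the limit on every array. For them the median of the probe sets and raised signals return the same value by construction. The 25 ratios that moved were of MMP1, MMP2 and TIMP3. MMP2 in J3T-2A over J3T-2 went from 2.11 to 1.41 with the pseudocount and 0.45 with signals raised to the limit, and in J3T-1 over J3T-1shA from 1.34 to 0.90 and 0.09. TIMP3 in J3T-2A over J3T-2 went from -1.03 to -0.36 with the median of its probe sets.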
